A study of Mus musculus with 6 samples.

Results

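The genes described here make cholesterol from acetyl-CoA, sense its level, or move it through and out of the cell. A list of 28 symbols was taken in pathway order: the enzymes of the mevalonate and sterol stages, the SREBP regulators, and genes of sterol transport and efflux. The list does not cover the whole pathway, and its remaining enzymes are not analysed here. Every non-control probe whose transcript accession belongs to a listed gene was taken, which gave 41 probes for 27 genes, out of 32981 named probes for 22903 genes on the array. For Acat2, the cytosolic thiolase of the first step, no probe was matched by accession, so it has no value. Of the 27, 26 had signal well above background on each of the 6 arrays and were tested. The other, Abcg1, which encodes a sterol exporter, was well above background on 0 of 6 arrays.

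The samples were 3 labelled as Ggct knockdown and 3 as control, all of 1 mouse glioblastoma stem cell line. The line was derived from brain tumours induced in mice with the SB transposon and was kept as neurospheres in serum-free medium with B27, N2 and 10 ng/ml of EGF and of bFGF. Knockdown cells stably carried a lentiviral hairpin against Ggct, and the titles of all 3 name the same hairpin, while control cells carried a lentiviral non-target hairpin. With 1 line and 1 hairpin, an effect of the hairpin or of lentiviral integration cannot be told apart from loss of Ggct. Each knockdown array shares the date in its title with 1 control array, giving 3 same-day pairs. The labels do not state separate cultures, so the p-values below set the group difference against a spread of these arrays that may be only technical. Strain, sex and age of the source mice are not given in the sources used here.

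Cholesterol synthesis begins with the joining of acetyl units to mevalonate, continues through isoprenoids to squalene, and ends with the closing of squalene into lanosterol and its trimming to cholesterol. The transcription factor SREBP2, encoded by Srebf2, drives nearly all of these enzymes when sterols in the endoplasmic reticulum are low, and it is held back by the INSIG proteins through its escort SCAP when sterols are high. Oxysterols in turn activate LXR receptors, which raise efflux through ABCA1. Neural cells make most of their own cholesterol, since lipoprotein cholesterol of the blood does not enter the brain.

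The promoters of the 3 genes that changed, Hsd17b7, Dhcr7 and Srebf2, and of Hmgcs1, a classical SREBP2 target, are printed here to show the letters that SREBP and its partners are known to bind. They are RefSeq sequences of mouse build GRCm38.p6, 5′ to 3′ on the strand of the gene, 250 bases before the start and 50 after it. Capitals mark CCAAT boxes in either orientation (CCAAT or ATTGG), the letters bound by NF-Y, a partner of SREBP, and in Hmgcs1 also the match to TCACNCCAC, a sterol regulatory element.
Hsd17b7, chr1:169969156-169969455, minus strand: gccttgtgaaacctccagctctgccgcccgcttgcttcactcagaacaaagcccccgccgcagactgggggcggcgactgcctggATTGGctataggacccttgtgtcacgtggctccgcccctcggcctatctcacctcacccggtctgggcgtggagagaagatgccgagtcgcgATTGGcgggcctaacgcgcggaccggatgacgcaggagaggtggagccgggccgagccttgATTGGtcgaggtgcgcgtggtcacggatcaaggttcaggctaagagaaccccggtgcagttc
Dhcr7, chr7:143829964-143830263, plus strand: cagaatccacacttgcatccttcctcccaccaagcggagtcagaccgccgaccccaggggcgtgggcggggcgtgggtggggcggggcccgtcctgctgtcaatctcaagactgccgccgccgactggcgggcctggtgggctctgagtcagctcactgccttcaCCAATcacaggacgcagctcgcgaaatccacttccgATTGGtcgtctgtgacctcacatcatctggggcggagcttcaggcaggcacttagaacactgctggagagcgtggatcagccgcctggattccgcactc
Srebf2, chr15:82147019-82147318, plus strand: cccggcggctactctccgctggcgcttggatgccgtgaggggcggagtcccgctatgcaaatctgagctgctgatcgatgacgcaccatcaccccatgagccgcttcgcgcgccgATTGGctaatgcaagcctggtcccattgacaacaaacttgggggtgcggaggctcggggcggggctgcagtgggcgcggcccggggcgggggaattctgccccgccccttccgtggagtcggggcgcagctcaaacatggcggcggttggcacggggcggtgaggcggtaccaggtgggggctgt
Hmgcs1, chr13:119690101-119690400, plus strand: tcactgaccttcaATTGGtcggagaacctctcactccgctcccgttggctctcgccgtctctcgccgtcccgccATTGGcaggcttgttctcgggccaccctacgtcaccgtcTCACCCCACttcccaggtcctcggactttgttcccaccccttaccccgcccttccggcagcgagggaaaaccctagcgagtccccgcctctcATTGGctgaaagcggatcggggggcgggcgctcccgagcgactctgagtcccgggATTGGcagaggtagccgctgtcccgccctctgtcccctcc
For Dhcr7 the table gives 3 starts, and the one printed is the only one of them with a CCAAT box.

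Promoter sequences were matched for 22 of the 28 listed genes, with 30 starts. CCAAT, searched on both strands, was in 20 of the 30 promoters (66.7%), belonging to 19 genes, against 37.4% of all 32851 promoters of the same length and 38.2% of the 14217 promoters of genes tested here. The GC box GGGCGG was in 25 of them (83.3%), belonging to 21 genes, against 35.7% of all promoters and 58.4% of those of tested genes. The E-box CACGTG was in 7 (23.3%), belonging to 6 genes, against 7.15% of all promoters and 9.60% of those of tested genes. Both Scap promoters held it, and their windows overlap. The strict element TCACNCCAC was in 1, that of Hmgcs1 (3.33%), against 1.24% of all promoters and 1.21% of those of tested genes. Every motif was searched on both strands, and none of the 4 contains another, though neighbouring matches may share end bases. Of the genes that changed, Hsd17b7 had 3 CCAAT boxes, Srebf2 had 1, and Dhcr7 had 2 at its printed start and 0 at its other starts. The E-box of Dhcr7 was at a start that is not printed. Hmgcs1, which did not pass the test, had 4 CCAAT boxes. A match shows only that these letters stand in the window.

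The knockdown was first checked on its target. Ggct, which encodes gamma-glutamylcyclotransferase of glutathione breakdown, had a normalised log2 signal of 0.22, 0.91 and 0.70 on the knockdown arrays, against 3.32, 3.72 and 3.70 on the control arrays. Here and below, the normalised log2 signal is the log2 processed intensity minus the 75th percentile of its array, so 0 is the level of the 75th percentile probe. Ggct was at 12.7% of control (limma adjusted p = 0.00314). Arrays had 54.5% to 56.8% of probes well above background and a 75th percentile signal of 812 to 1373 intensity units, and the number of arrays limits the precision. In a principal component analysis, knockdown replicate 1 scored -46.6 on the leading axis, apart from knockdown replicates 2 and 3 (-9.13 and -15.4), and the control arrays scored 14.98 to 30.5.

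Of 8 markers listed for glioma stem cells, 7 (Nes, Sox2, Prom1, Msi1, Fabp7, Vim and Cd44) were above background on all arrays, and 0 of the 7 passed in limma, with 2 lower and 1 higher at an unadjusted p below 0.05. The 2 lower were Nes (log2 fold change -0.64) and Sox2 (-0.34), and the 1 higher was Prom1 (1.03). Olig2 was above background on 0 arrays. The summed linear signal of these markers, in units of the 75th percentile probe, was 218 to 269 in knockdown and 233 to 271 in control arrays. Vim, with a mean log2 signal of 7.68 in knockdown and 7.60 in control arrays, was by far the brightest. The sum therefore mostly follows Vim and says little about the other markers. Of 42 markers of other cell types, 24 passed the background filter, and Acta2 of pericytes, Itgam of microglia and Snap25 of neurons had mean log2 signals of 4.28, 3.43 and 2.78 in knockdown and 4.39, 3.60 and 3.03 in control arrays. Rbfox3, Dcx and Stmn2 of neurons, Aif1, Cx3cr1, P2ry12 and Ptprc of microglia, and Kdr, Cldn5 and Vwf of endothelium were on 0 arrays above background. Of 4 oligodendrocyte markers tested out of 7, Mbp (log2 fold change 1.01) and Cnp (0.48) rose, and the list's summed signal was 2.49 to 2.68 in knockdown and 1.82 to 1.93 in control arrays. Of 6 astrocyte markers tested out of 8, Slc1a3 (0.86) and S100b (1.01) rose, while Gfap (-0.75), Sox9 (-0.55), Aldh1l1 (0.98) and Gja1 (0.12) did not pass. Gfap was above background on only 2 knockdown and 2 control arrays, and Aldh1l1 on 3 and 1, so their fold changes rest partly on background signal. The astrocyte summed signals were 4.49 to 5.55 in knockdown and 4.56 to 6.37 in control arrays. Of 4 microglial markers tested out of 8, Tmem119 (1.17) rose, with summed signals of 13.1 to 15.6 in knockdown and 12.2 to 18.4 in control arrays. Of the neuron, endothelium and fibroblast lists, 4 of 7, 2 of 6 and 4 of 6 markers were tested and 0 passed, with 1, Dcn, higher at an unadjusted p below 0.05. Their summed signals were 7.40 to 9.34, 0.17 to 0.194 and 16.5 to 24.6 in knockdown arrays, against 7.79 to 12.1, 0.153 to 0.229 and 16.3 to 25.5 in control arrays. The fibroblast sum mostly follows Acta2, its brightest marker. Over all genes tested, 4.57% passed as higher. With the same-day pair as a replicate block Dcn passed (limma adjusted p = 0.0375), and Slc1a3 and Cnp did not pass (limma adjusted p = 0.0653 and 0.0845). With normexp background correction S100b was at 0.36, Mbp at 0.62 and Slc1a3 at 0.60, and these 3 did not pass (limma adjusted p = 0.258, 0.0508 and 0.0586). Each of the 5 rises without the block had a limma adjusted p above 0.05, from 0.0575 to 0.159, without control replicate 1, control replicate 2 or knockdown replicate 3. The part of these marker shifts in the sterol results was not tested, and in bulk RNA, fewer cells of a type and less RNA per cell cannot be told apart.

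Sterol genes that changed in the knockdown were lower. Of the 26 tested, 3 fell, Hsd17b7, Dhcr7 and Srebf2, 0 rose, and 23 did not pass the threshold, an adjusted p below 0.05 in limma. Over all 14148 genes tested, 2.84% passed as lower, 4.57% as higher and 7.41% either way. With the same-day pair as a replicate block 2 members, Hsd17b7 and Dhcr7, passed as lower and 0 as higher, against 1.16% and 2.78% of all genes. In all, 19 of the 26 had a log2 fold change below 0, against 47.7% of all genes, and 16 of these were among the 23 that did not pass. At an unadjusted p below 0.05 in limma 9 members were lower, against 10.7% of all genes, and 1, Abca1, was higher, against 14.1%. The median log2 fold change of the 26 was -0.18, or 88.1% of control, against 0.02 over all genes tested. In limma with array weights, an alternative that gives uneven arrays less weight, 5 members passed as lower and 1, Abca1, as higher. Of all 14148 genes, that setting passed 1105 as lower and 1454 as higher, against 402 and 646 in the main fit.

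**Figure D1:**
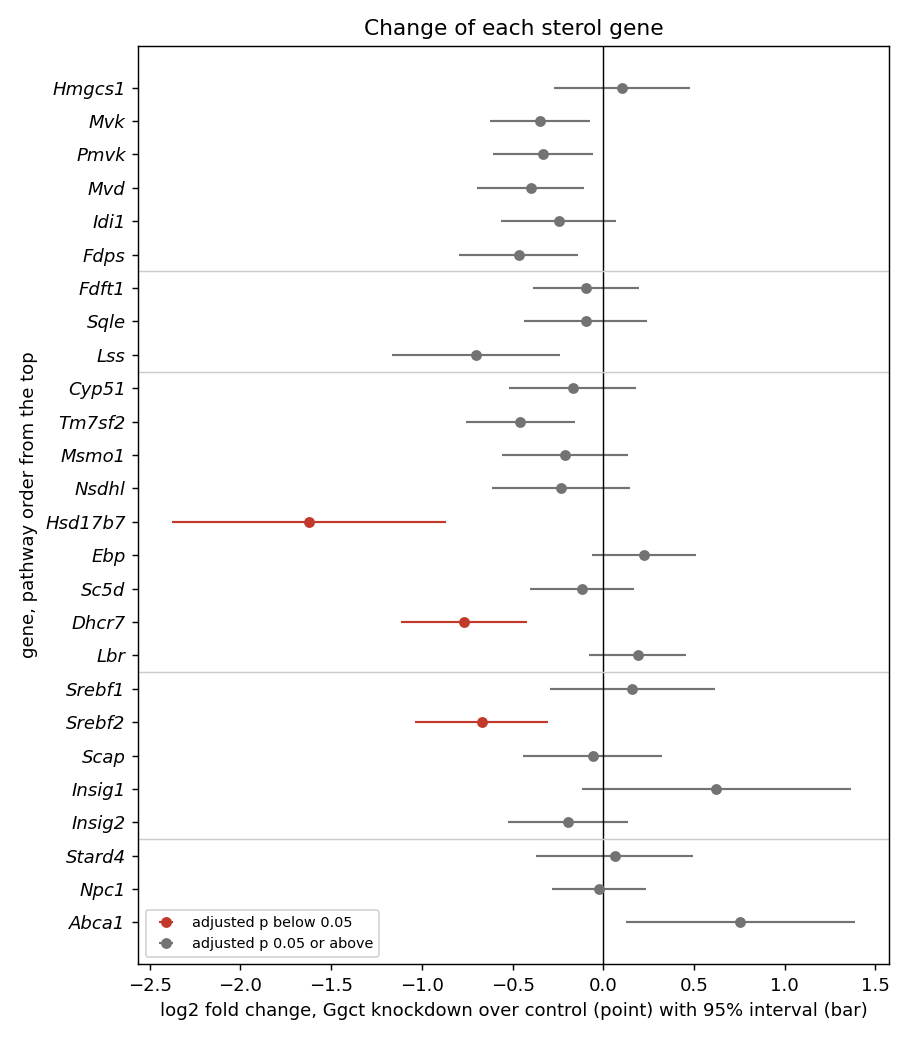
Log2 fold change of each tested gene (horizontal axis, Ggct knockdown over control, point) with its 95% interval (bar), in pathway order from the top, and with grey lines between the stages. Colour marks the 3 genes that passed, Hsd17b7 at -1.62, Dhcr7 at -0.77 and Srebf2 at -0.67. Among the others, Lss at -0.70 and Abca1 at 0.76 lie furthest from 0.

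The falls were also counted without the model, on the same 6 arrays. The members were chosen with earlier results of these data known, so these counts are a description and no separate support. In 14 of the 26 genes the knockdown array was lower than its control array in all 3 same-day pairs, against 22.4% of all genes tested, and in 3, Ebp, Lbr and Abca1, it was higher in all 3, against 26.3%. In 10 genes every knockdown array was below every control array, against 14.6% of all genes: Mvk, Pmvk, Mvd, Idi1, Fdps, Lss, Tm7sf2, Hsd17b7, Dhcr7 and Srebf2. In 1, Lbr, every knockdown array was above every control array, against 17.8%. Of the 14 genes lower in all pairs, 6 fell furthest in pair 1 and 8 in pair 3. The pair medians of the 26 were -0.20, -0.20 and -0.31 for pairs 1, 2 and 3, against 0.09, 0.003 and -0.03 over all genes.

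**Figure D2:**
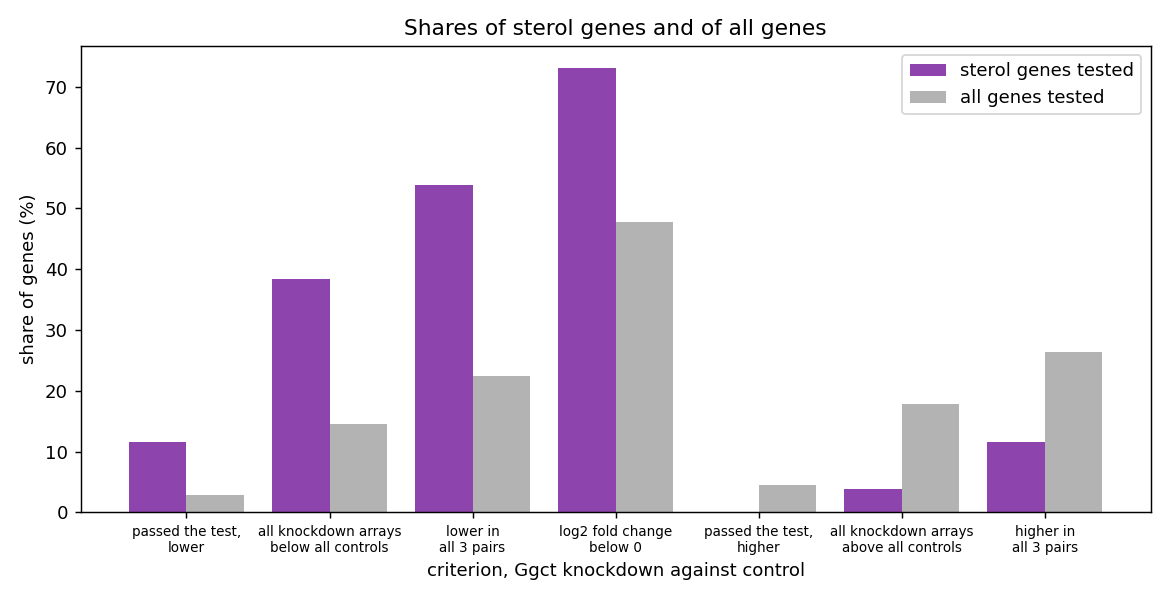
Share of the 26 sterol genes (purple) and of all 14148 genes tested (grey) that met each criterion, in percent. The sterol genes were chosen with earlier results of these data known, so the shares are a description and not a test. Among sterol genes 11.5% passed as lower against 2.84% of all genes, 53.8% were lower in all 3 pairs against 22.4%, and 0 passed as higher against 4.57%.

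The enzymes from mevalonate to farnesyl diphosphate were tested in 6 members, of which 0 passed in limma and 4 (Mvk, Pmvk, Mvd and Fdps) were lower at an unadjusted p below 0.05. Their median log2 fold change was -0.34, and 5 of the 6 were lower in all 3 pairs with groups that did not overlap. Hmgcs1, the synthase that makes HMG-CoA, was the exception. It was at 4.91, 4.89 and 5.14 in knockdown against 4.64, 4.85 and 5.15 in control arrays, a log2 fold change of 0.10 with a 95% interval from -0.27 to 0.48. Its groups overlapped and its pairs were split in sign.

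Mvk, which phosphorylates mevalonate, was at 3.88, 4.08 and 4.10 in knockdown against 4.31, 4.38 and 4.41 in control arrays (log2 fold change -0.35 ± 0.12, SE; limma adjusted p = 0.119). Pmvk, the next kinase, was at 79.5% of control and Mvd, the decarboxylase that yields isopentenyl diphosphate, at 75.9% (limma adjusted p = 0.133 and 0.102). The isomerase gene Idi1 had a log2 fold change of -0.25, with a gap of 0.01 between its highest knockdown and lowest control array, and of -0.15 without control replicate 3. Fdps makes farnesyl diphosphate, from which both sterols and prenyl groups are built. It was at 5.86, 6.02 and 6.22 in knockdown against 6.48, 6.37 and 6.65 in control arrays (-0.47 ± 0.14, SE; limma adjusted p = 0.0923), and it passed in limma with an intensity trend (adjusted p = 0.0482). That trend setting passed 530 of all genes as lower, against 402 in the main fit. A second probe of Mvk had a log2 fold change of 0.08, opposite in sign to the brighter probe, and the mean of both was at -0.13, whereas the second probe of Pmvk was at -0.29.

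**Figure D3:**
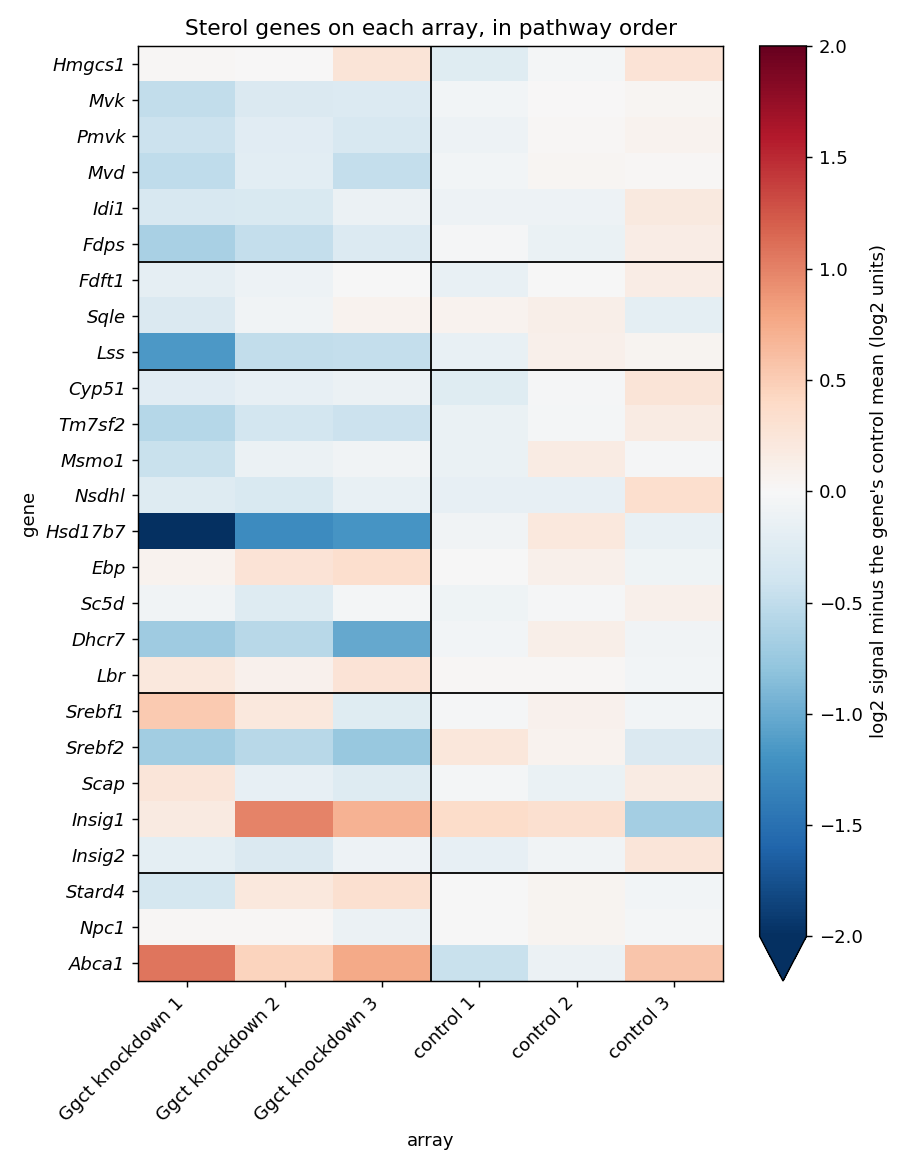
Normalised log2 signal of each tested gene on each array, minus the mean of the gene's 3 control arrays (colour, log2 units, clipped at -2), with the 3 knockdown arrays to the left of the 3 control arrays. Rows run in pathway order, and black lines part the stages. Hsd17b7 is the darkest row, and Hmgcs1, Sqle and Ebp show no common fall across the 3 knockdown arrays.

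The 3 enzymes that build and close squalene differed in size of change, and 0 of them passed in limma, with 1, Lss, lower at an unadjusted p below 0.05. Fdft1, squalene synthase, was at 93.6% of control with a 95% interval on the log2 scale from -0.39 to 0.20. Sqle, the epoxidase that is a flux-controlling step, was at 5.92, 6.12 and 6.27 in knockdown against 6.27, 6.32 and 6.01 in control arrays, and its groups overlapped (limma adjusted p = 0.744).

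Lss encodes lanosterol synthase, which forms the first sterol ring system. It was at 2.75, 3.40 and 3.42 in knockdown against 3.75, 3.99 and 3.94 in control arrays, so that every knockdown array lay below every control array and knockdown replicate 1 lay furthest down. Lss was at 61.5% of control, a log2 fold change of -0.70 ± 0.20 (SE), with a limma adjusted p of 0.0776. Its other probes were at -0.69 and -0.49. Of the 11 members with several tested probes, all probes had 1 sign in 8, Lss among them, and differed in sign in 3, Mvk, Insig2 and Stard4. With the mean of the 3 probes Lss passed in limma (adjusted p = 0.0312), and it also passed with normexp background correction (0.0497), array weights (0.0207) and an intensity trend (0.0422). Array weights and the trend passed 1105 and 530 of all genes as lower, against 402 in the main fit.

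From lanosterol to cholesterol, 2 of 9 enzymes fell and 0 rose, against 2.84% and 4.57% of all genes, and the median log2 fold change was -0.21. Hsd17b7 had the largest change of the 26. It encodes a reductase that turns a sterol ketone back into an alcohol during demethylation, and its product can also reduce estrone to estradiol. The signal was 1.01, 2.19 and 2.27 in knockdown against 3.38, 3.66 and 3.29 in control arrays. The groups were parted by 1.03 log2 units, and knockdown replicate 1 was lower than the other knockdown arrays. Hsd17b7 was at 32.5% of control (1.82 ± 0.71 in knockdown and 3.44 ± 0.19 in control arrays, SD, n = 3 each; log2 fold change -1.62 ± 0.32, SE; limma adjusted p = 0.0299).

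A second Hsd17b7 probe fell alike. It was at -0.93, -0.02 and -0.19 in knockdown against 0.92, 1.22 and 1.01 in control arrays, a log2 fold change of -1.44 ± 0.25 (SE). When every probe was tested on its own over 31804 probes, of which 1.75% were called, this was the 1 probe of the 39 tested for these genes that passed (limma adjusted p = 0.047), and the brighter probe was at 0.0637. Hsd17b7 had a log2 fold change of -1.21 without knockdown replicate 1 and -1.81 without knockdown replicate 2, and passed in both cases (limma adjusted p = 0.0107 and 0.0392). It did not pass without knockdown replicate 3 (0.0648), control replicate 1 (0.104), control replicate 2 (0.109) or control replicate 3 (0.0689), where the log2 fold change was -1.84, -1.66, -1.51 and -1.70. With those arrays left out in turn, 10, 6, 14 and 135 of all genes passed as lower, against 402 in the main fit.

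Dhcr7 encodes the reductase of the final step in one of the routes to cholesterol, and its loss in people causes Smith-Lemli-Opitz syndrome. It was at 1.28, 1.43 and 0.97 in knockdown against 1.94, 2.11 and 1.93 in control arrays, with a gap of 0.50 between the groups. Dhcr7 was at 58.8% of control (log2 fold change -0.77 ± 0.15, SE; limma adjusted p = 0.0282), with no second probe to set beside it. Every pair was lower, by 0.66, 0.68 and 0.96, and all 3 control arrays lay within a narrow range. The call was lost in limma without knockdown replicate 3 (adjusted p = 0.0839), control replicate 1 (0.093), control replicate 2 (0.113) or control replicate 3 (0.0633).

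The other 7 enzymes of this stage did not pass. Tm7sf2 and Lbr encode reductases of the same sterol bond, and they lay on opposite sides of 0. Tm7sf2 was at 2.10, 2.31 and 2.24 in knockdown against 2.55, 2.64 and 2.83 in control arrays (-0.46 ± 0.13, SE; limma adjusted p = 0.0757), and its second probe was at -0.42. Lbr, which is also a receptor of the inner nuclear membrane, was at 5.71, 5.57 and 5.76 in knockdown against 5.52, 5.52 and 5.44 in control arrays (0.19 ± 0.11, SE; limma adjusted p = 0.357). Both pairs of groups were free of overlap, in opposite directions, and the difference between these 2 genes was not tested.

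Msmo1 and Nsdhl act in the same demethylation complex as the Hsd17b7 product. Msmo1, the methyl oxidase, was at 86.3% of control and Nsdhl, the decarboxylase, at 85.1%, both with intervals that include 0. Cyp51, the lanosterol demethylase, was at 3.93, 3.99 and 4.03 in knockdown against 3.90, 4.13 and 4.41 in control arrays (limma adjusted p = 0.545). Sc5d, a desaturase, had a log2 fold change of -0.12. The isomerase gene Ebp was at 4.86, 5.05 and 5.12 in knockdown against 4.77, 4.89 and 4.70 in control arrays, a log2 fold change of 0.22 with an interval from -0.06 to 0.51, and its second probe was at 0.20.

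**Figure D4:**
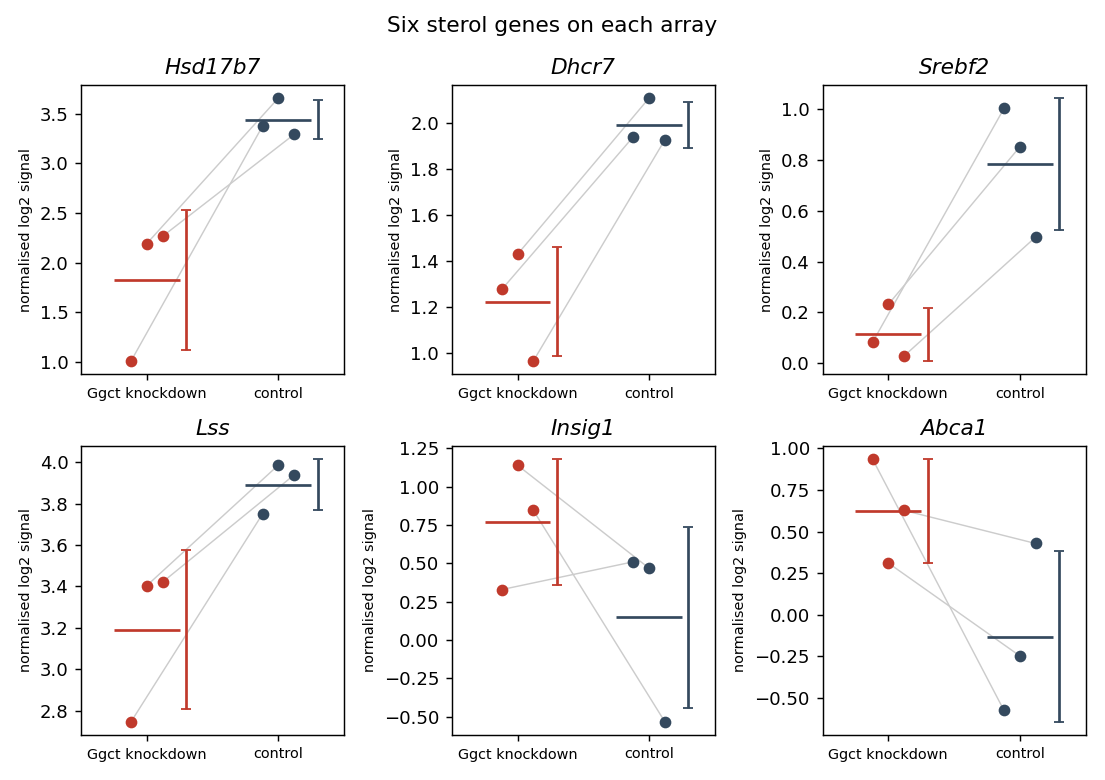
Normalised log2 signal (vertical axis, log2 units, not starting at 0) of 6 genes on the 3 knockdown (red) and 3 control (dark) arrays. Points are arrays, horizontal lines are group means, bars are the mean with its SD, and grey lines join same-day pairs. In Hsd17b7, Dhcr7, Srebf2 and Lss every knockdown point lies below every control point, and in Insig1 and Abca1 the groups overlap.

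Among the SREBP regulators, 1 of 5 fell and 0 rose, against 2.84% and 4.57% of all genes. Srebf2 encodes the main activator of the pathway, and its product is known to act on its own gene. Srebf2 was at 0.08, 0.23 and 0.03 in knockdown against 1.004, 0.85 and 0.50 in control arrays. The knockdown arrays were close together, and the control arrays were spread, with control replicate 3 nearest to them. Srebf2 was at 62.8% of control (log2 fold change -0.67 ± 0.16, SE; limma adjusted p = 0.0462, or 0.0689 with the same-day pair as a replicate block). No second probe of Srebf2 was named. With quantile normalization the adjusted p in limma was 0.0605, and with single arrays left out the call held in 1 case of 6, without control replicate 3 (0.0419). Leaving out knockdown replicate 1, 2 or 3 gave an adjusted p of 0.0763, 0.0797 and 0.137, and leaving out control replicate 1 or 2 gave 0.145 and 0.16.

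Srebf1 encodes the related factor that favours fatty acid genes. It was at 5.62, 5.30 and 4.85 in knockdown against 5.08, 5.18 and 5.04 in control arrays, with a log2 fold change of 0.16 and an interval from -0.29 to 0.61. Its knockdown arrays spread to both sides of the controls. Scap, the escort that carries SREBP to the Golgi, was at 96.0% of control. Insig2, a retention protein, had a log2 fold change of -0.20, and of its 3 probes 2 were below 0 and 1 above it, at 0.17.

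Insig1, the retention protein that is itself an SREBP target, was at 0.33, 1.14 and 0.85 in knockdown against 0.51, 0.47 and -0.53 in control arrays. Control replicate 3 was far below the other controls, and the groups overlapped. The log2 fold change of 0.62 ± 0.32 (SE) did not pass in limma (adjusted p = 0.278), with an interval from -0.12 to 1.36 and pair differences of -0.18, 0.67 and 1.38. Without control replicate 3 the log2 fold change was 0.28.

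Of the 3 transport and efflux genes tested, 0 passed in limma, with 1, Abca1, higher at an unadjusted p below 0.05. Abca1, which exports cholesterol to apolipoproteins, was at 0.94, 0.31 and 0.63 in knockdown against -0.57, -0.25 and 0.43 in control arrays. All pairs were higher, by 1.51, 0.56 and 0.20, but control replicate 3 lay above knockdown replicate 2. Abca1 was at 169% of control, a log2 fold change of 0.76 ± 0.27 (SE), with a limma adjusted p of 0.136, or 0.0334 with array weights. Without pair 1 it was at 0.38. Stard4, a soluble sterol carrier, had a log2 fold change of 0.06 and its second probe -0.17. Npc1, the lysosomal cholesterol exporter, was at 98.4% of control with an interval on the log2 scale from -0.28 to 0.24. A dim second probe of Abca1 was above background on 0 arrays.

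Genes around the pathway, not among the 28, were read from 6 lists grouped by role. The lists were chosen with earlier results of these data known, so their counts are a description and no separate support. Over all genes tested, 2.84% passed as lower and 4.57% as higher, and the lists are short. Of 9 isoprenoid branch genes 1 fell, Nus1, a subunit of the enzyme that makes dolichol, and 0 rose (median log2 fold change -0.03, or -0.10 without control replicate 1). Nus1 was at 1.80, 1.98 and 1.88 in knockdown against 2.44, 2.56 and 2.54 in control arrays (-0.62 ± 0.11, SE; limma adjusted p = 0.0241, or 0.0563 with the same-day pair as a replicate block). Its groups were well apart. Of 10 genes of SREBP cleavage and sterol-sensing degradation, among them the proteases Mbtps1 (-0.11) and Mbtps2 (-0.05), 0 passed in limma, 0 were past an unadjusted p of 0.05, and the median was -0.02, turning to 0.00333 without knockdown replicate 2 and 0.0069 without control replicate 3.

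Of 7 LXR receptors and other LXR targets, 1 rose and 0 fell, against 4.57% and 2.84% of all genes, with a median log2 fold change of 0.14. The rise was Mylip, which encodes the ubiquitin ligase that marks lipoprotein receptors for breakdown. Mylip was at 0.89, 0.02 and 0.42 in knockdown against -1.03, -0.98 and -0.41 in control arrays, without overlap, a 2.38-fold rise (1.25 ± 0.25, SE; limma adjusted p = 0.0315, or 0.0596 once pairs were blocked). The receptor gene Nr1h3 had a log2 fold change of 0.46 and Nr1h2 of 0.15, and the exporter gene Abcg4 of -0.38.

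Of 15 genes of other uptake and intracellular transport, 2 fell and 1 rose, against 2.84% and 4.57% of all genes. Their median was 0.03, which turned to -0.08 without knockdown replicate 1 and -0.02 without control replicate 1. Scarb1, a receptor that takes up cholesterol esters from lipoproteins, was at 2.20, 2.46 and 1.98 in knockdown against 3.08, 3.01 and 3.09 in control arrays (-0.84 ± 0.15, SE; limma adjusted p = 0.0202, or 0.0532 once pairs were blocked). Vldlr, a lipoprotein receptor that Mylip protein degrades, was at 3.14, 3.36 and 3.21 in knockdown against 4.11, 3.99 and 3.67 in control arrays (-0.69 ± 0.15, SE; limma adjusted p = 0.0377, or 0.0707 once pairs were blocked). Lipa, the lysosomal lipase that frees cholesterol from its esters, was at 0.31, 0.50 and 0.68 in knockdown against -0.13, -0.16 and -0.18 in control arrays, a 1.57-fold rise (0.65 ± 0.13, SE; limma adjusted p = 0.0303, or 0.0692 once pairs were blocked). In Scarb1, Vldlr and Lipa the groups did not overlap. Nus1, Mylip, Scarb1, Vldlr and Lipa did not pass with the block, and without control replicate 1, control replicate 2 or knockdown replicate 3 their adjusted p in limma was 0.0723 to 0.14.

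**Figure D5:**
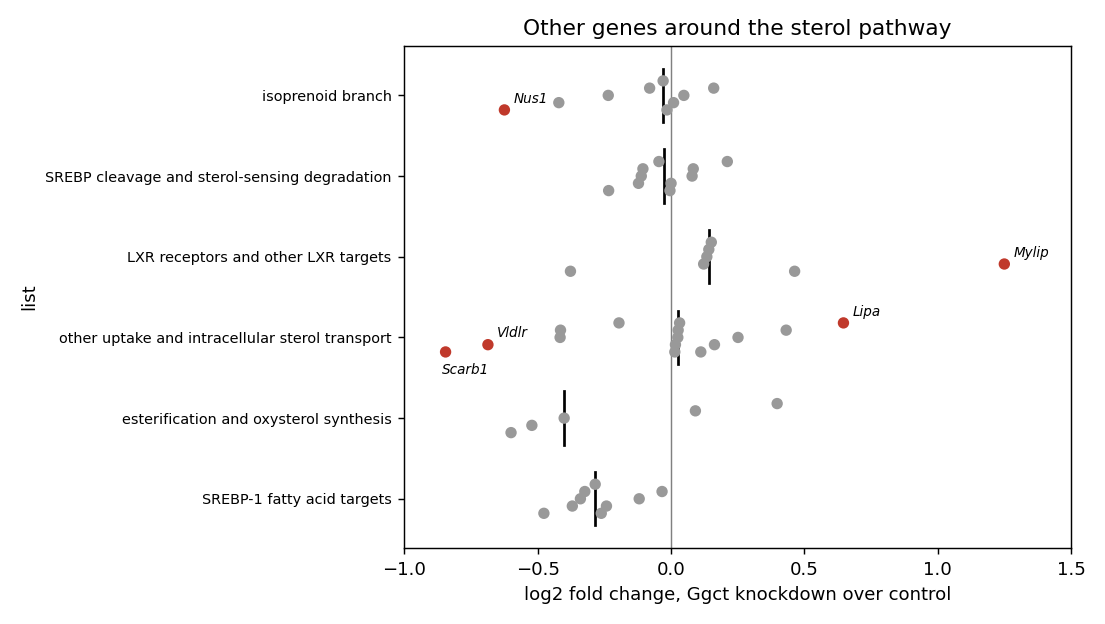
Log2 fold change (horizontal axis, Ggct knockdown over control) of the tested genes in 6 lists around the pathway, 1 point a gene. Black bars are list medians, and red points with names are the 5 genes that passed. The 9 fatty acid targets of SREBP1 lie left of 0, and the other lists lie on both sides.

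Of 5 esterification and oxysterol genes tested out of 8, 0 passed in limma and 0 were past an unadjusted p of 0.05, with a median of -0.40, which was 0.11 without knockdown replicate 1. The acyltransferase genes Soat1 and Soat2, which store cholesterol as ester, had log2 fold changes of -0.60 ± 0.33 and -0.40 ± 0.23 (SE), and Ch25h, which makes an oxysterol, of 0.40 ± 0.21. Cyp27a1, Cyp7b1 and Cyp39a1, which make or convert oxysterols and bile acids, were above background on 0 arrays. All 9 fatty acid targets of SREBP1 tested had log2 fold changes below 0, against 47.7% of all genes, from -0.48 in Fads2 to -0.03 in Acss2, with a median of -0.28. Of these 0 passed in limma, 5 were lower at an unadjusted p below 0.05, against 10.7% of all genes, and 7 were lower in all 3 pairs, against 22.4%. Among them Fasn, fatty acid synthase, was at -0.34 and Scd1, a desaturase, at -0.32.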

How the data were processed

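Total RNA of 3 Ggct knockdown and 3 control samples was labelled with Cy3 and hybridised to one-colour Agilent arrays, per the labels. The deposited scanner files hold background-subtracted intensity from Agilent Feature Extraction 11.0.1.1 and mm9 as the array design's build, per the file headers. The deposited value table holds log2 values that differ from the scanner files by 1 constant an array within 0.01, with the 75th percentile at about 0, no centring of genes and column medians from -4.47 to -4.22. All arrays lay on 1 slide with 1 scan day, so neither could act as a batch.

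Outlier spots were left out, log2 intensity was averaged over a probe's spots, and the 75th percentile of each array was subtracted. Of 56605 probes, 12 were left out as outliers (8 of them named) and 32989 were named by unversioned accession in a RefSeq table of GRCm38.p6, used for names and promoters, so that 32981 named probes remained. A filter kept probes that 3 or more of the 6 arrays placed well above background, and the brightest probe stood for each of 14148 genes. Knockdown was compared with control in limma 3.58.1 (R 4.3.3), two-sided, with Benjamini-Hochberg adjustment over all genes. Fold changes are knockdown over control. Depth does not apply to arrays, and 0 spots were saturated. The scanner files hold no mean spot signal, so the normexp alternative used the median signal. The fit was also run on simulated arrays with independent noise of equal spread on every array. The real arrays were uneven, so that run cannot show how the fit performs on them.

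Titles share dates, so the labels mark pairs by day; deviations of paired arrays correlated at -0.02, 0.55 and -0.20 across genes. The main comparison used no block. Every member is named, with arrays' values for those past the threshold or central to a stage, and at most 4 genes past the threshold for each other list. Genes of those lists named without passing were chosen after their values were seen. Members, lists and tests were chosen with earlier results of these data known. Python 3.11.15, pandas 2.3.3 and matplotlib 3.10.9 were used.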

Additional observations from a re-analysis of the deposited data

How the results depend on the processing

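The 20 alternatives gave 740 values for the 37 genes named with a test, of which 14 turned sign. These were in 6 members near 0. With single arrays left out, Hmgcs1 ran from -0.0176 (without control replicate 1) to 0.239, Srebf1 from -0.0212 (without knockdown replicate 1) to 0.365, Scap from -0.209 to 0.0388 (positive without knockdown or control replicate 3), Stard4 from -0.0674 to 0.272 (negative without knockdown replicate 2 or 3) and Npc1 from -0.0502 to 0.0241 (positive without knockdown replicate 3 or control replicate 2). Sqle was at 0.0327 and Srebf1 at -0.0306 without pair 1, Scap at 0.124, Stard4 at -0.0930 and Npc1 at 0.0014 without pair 3, and Stard4 at -0.0534 with the mean of its probes. Hsd17b7, Dhcr7 and Srebf2 stayed below 0 in all 20 and passed in 12, 11 and 7 of them. The 3 members lower became 0 without a filter and, for the brightest probe of each gene, 0 when every probe was tested on its own, both with more tests (the dimmer Hsd17b7 probe passed there), 5 with array weights, 6 with an intensity trend, 1 without pair 1, 0 without pairs 2 or 3, and 0 to 2 with single arrays left out. With the replicate block 2 members passed as lower, without Srebf2. Members higher were 1 with array weights and 0 otherwise. Over all genes, 402 lower and 646 higher became 102 and 255 without a filter, 103 and 224 by the brightest probe when every probe was tested, 164 and 394 with the replicate block, 1105 and 1454 with array weights, 530 and 748 with an intensity trend, 108 and 235 without pair 1, 15 and 66 without pair 2, and 0 and 0 without pair 3. With single arrays left out they ranged from 6 to 343 and from 8 to 497, both lowest without control replicate 1. The median of the members ran from -0.281 (without control replicate 1) to -0.0709 (without control replicate 3) with single arrays left out and was -0.116 without pair 3. The medians of the lists around the pathway were also taken without single arrays, an alternative chosen after seeing the data. The cause of these shifts was not tested, beyond the smaller number of samples or larger number of tests. With 3 arrays a group the members' standard errors were 0.112 to 0.324 on the log2 scale, though all 26 members were above background on all arrays.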
